A study of Homo sapiens with 6 samples.

Results

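AP-1 is a family of paired transcription factors, and 10 genes were followed here: the Fos subunits FOS, FOSB, FOSL1 and FOSL2, the Jun subunits JUN, JUNB and JUND, the related factor ATF3, and the immediate early genes IER2 and IER5. They were taken from the count table by gene symbol, 10 of the 58051 genes listed, and all 10 had enough counts to be tested. RNA came from HEK293T, an established line of human embryonic kidney origin with the SV40 T-antigen. One group of 3 libraries received the empty plasmid pcDNA3.1-, and the other group of 3 received pcDNA3.1-ppk1, which expresses ppk1, a bacterial polyphosphate kinase that joins phosphate groups into long chains. Both groups were transiently transfected and harvested after 48 hours. Libraries carry the letters B, C and D, and the 2 libraries of a letter are matched biological replicates per the series' design text. After a transient transfection each library averages over cells with and without the plasmid, so a change in few cells and a small change in many cells cannot be told apart.

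AP-1 binds DNA as a dimer of basic leucine zipper proteins. Jun proteins can pair with each other, whereas Fos proteins need a partner such as a Jun protein. FOS, FOSB, JUN, JUNB, ATF3, IER2 and IER5 are textbook immediate early or rapid stress response genes: growth factor and stress kinases act on factors already present at their promoters, so transcription starts without new protein synthesis. Many of their messenger RNAs are short-lived, and in resting cells most of them are kept low, with JUND as the more steadily expressed Jun subunit.

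Each library held between 40851783 and 67122986 counts, and the ppk1 library was the deeper one of each pair. All 10 markers fixed for the HEK293T line were detected, with summed levels of 1076 to 1173 CPM (counts scaled to the library, with TMM factors, and multiplied by 1e6) in the empty vector libraries and 1050 to 1075 CPM in the ppk1 libraries. The 5 leukocyte markers summed to at most 1.36 CPM and the 4 endothelial markers to at most 0.292 CPM in any library. The 5 fibroblast markers summed to 20.4 to 25.3 CPM in the empty vector libraries and 23.8 to 24.1 CPM in the ppk1 libraries. Of these 5, 4 reached 1 CPM in at least 1 library. COL1A1 held most of the signal, with 15.4 to 20.6 CPM in both groups, while DCN stayed at or below 0.0677 CPM. The transcript of ppk1 itself was not analysed here.

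The question was whether AP-1 and immediate early transcripts differed when the kinase was expressed. FOSB rose by 62.3%, FOS by 27.5% and JUNB by 21.1%, and ATF3 fell, with a fitted change of -19.6%. The other 6 genes, FOSL1, FOSL2, JUN, JUND, IER2 and IER5, did not pass the test, with fitted changes between -7.76% and 9.70%. A gene was called when its Benjamini-Hochberg adjusted p in edgeR's quasi-likelihood test, with the replicate letter as a block, was below 0.05. By this rule 4 of the 10 genes were called, against 9.08% of the 19574 genes tested. Of the 10, 3 were called higher, against 4.04% of all tested genes, and 1 was called lower, against 5.04%. The 10 genes were chosen with earlier results of these data known, so these counts are a description only. The median log2 fold change was 0.10 over the 10 genes and 0.01 over all tested genes.

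**Figure D1:**
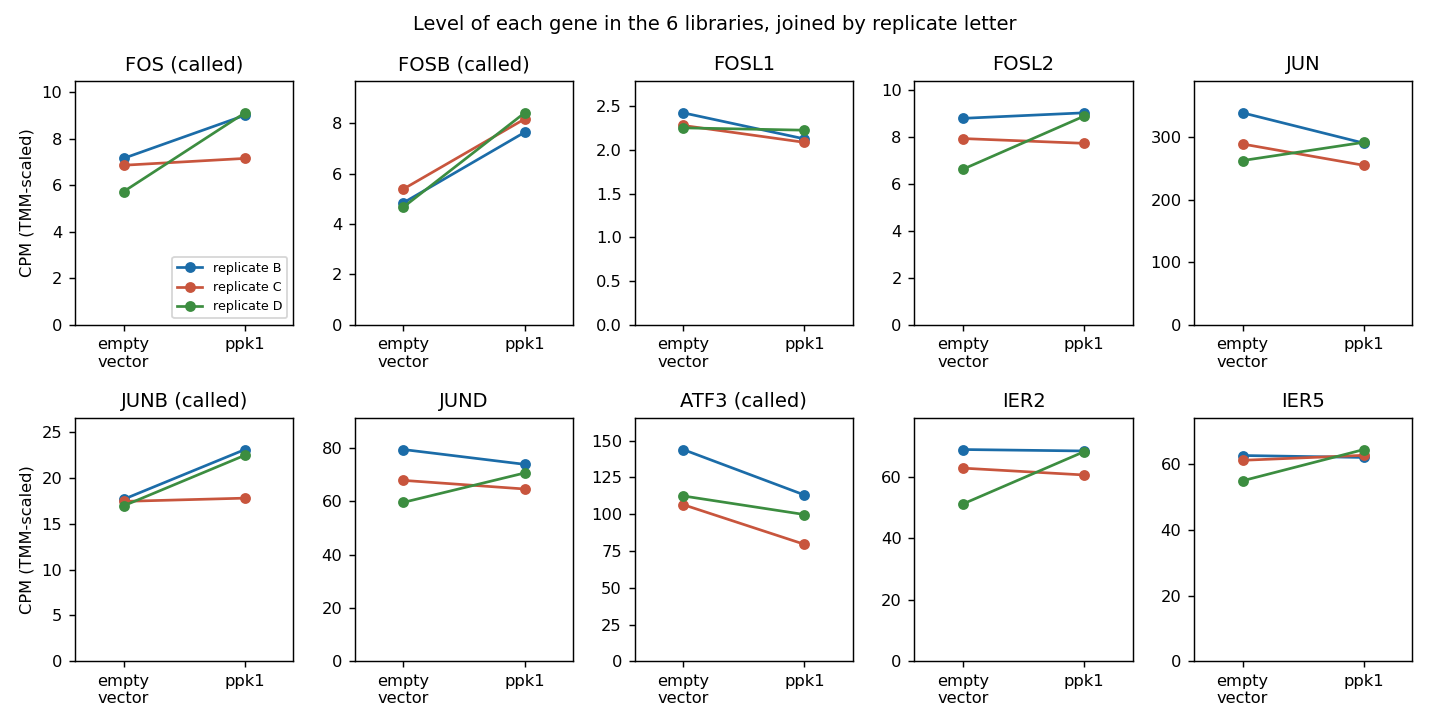
Level of each of the 10 genes (vertical axis, TMM-scaled CPM from 0) in the empty vector and ppk1 libraries, with lines joining libraries of the same letter. All 3 lines of FOSB climb, from between 4.68 and 5.39 CPM to between 7.65 and 8.42 CPM, and library D goes from the lowest control to the highest ppk1 level.

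Among the Fos subunits, FOSB stood at 4.85, 5.39 and 4.68 CPM in the empty vector libraries B, C and D and at 7.65, 8.18 and 8.42 CPM in the ppk1 libraries. All 3 ppk1 libraries lay above all 3 empty vector libraries. The log2 fold change was 0.70 (SE 0.11, edgeR adjusted p 1.03e-05), and the pairs B, C and D gave 0.65, 0.60 and 0.84. FOSB (ENSG00000125740, chromosome 19, plus strand) encodes a Fos protein that is also known in a shortened splice form, and counts per gene do not separate the forms. The gene ERCC1 overlaps FOSB on the opposite strand, though no exon of one overlaps an exon of the other in GENCODE release 29. ERCC1 had a log2 fold change of 0.09 (edgeR adjusted p 0.511).

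FOS (ENSG00000170345, chromosome 14, plus strand), the prototype of the family, had 7.16, 6.86 and 5.73 CPM in the empty vector libraries and 9.01, 7.16 and 9.12 CPM in the ppk1 libraries. The ppk1 libraries B and D were high, while ppk1 library C lay within the range of the controls. The log2 fold change was 0.35 (SE 0.11, edgeR adjusted p 0.0330), made up of 0.33, 0.06 and 0.67 in pairs B, C and D. The call was lost without the block (adjusted p 0.155), without replicate B (0.0627), without replicate D (0.346) and with DESeq2 (0.224). The value was 0.19 without replicate D.

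FOSL2 and FOSL1 encode the Fra-2 and Fra-1 proteins, Fos relatives that lack the strong activation domain of FOS. FOSL2 had 8.81, 7.94 and 6.63 CPM in the empty vector libraries and 9.04, 7.74 and 8.90 CPM in the ppk1 libraries, and the groups overlapped. The log2 change of FOSL2 was 0.13 (SE 0.10, edgeR adjusted p 0.470). FOSL1 gave 2.42, 2.28 and 2.25 CPM against 2.13, 2.09 and 2.23 CPM. The ppk1 libraries were lower by a narrow margin without overlap, with -0.12 on the log2 scale (SE 0.15, edgeR adjusted p 0.697). FOSL1 had the fewest reads of the 10 genes, 92 to 142 per library, and 2.91% of its transcript sequence, in stretches of 50 bases, also occurs in the pseudogene FOSL1P1.

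Of the Jun subunits, JUNB was the one called. JUNB (ENSG00000171223, chromosome 19, plus strand), a Jun protein with weaker activation activity than JUN, had 17.7, 17.4 and 16.9 CPM in the empty vector libraries. In the ppk1 libraries it had 23.1, 17.8 and 22.4 CPM, so that library C lay just above the controls and libraries B and D well above them. The log2 fold change was 0.28 (SE 0.09, edgeR adjusted p 0.0322), with 0.39, 0.03 and 0.41 in pairs B, C and D. Without the block (adjusted p 0.156), with DESeq2 (0.170) and in each fit that left out a pair (0.0769 to 0.160) JUNB was not called. HOOK2 overlaps JUNB exons on the opposite strand, and the strand setting of the counting is not given in the sources used here. HOOK2 differed by -0.20, 0.11 and 0.45 (log2) in pairs B, C and D, with an edgeR adjusted p of 0.447.

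JUN and JUND carried most of the AP-1 signal and were not called. JUN (ENSG00000177606, chromosome 1, minus strand) had 339, 289 and 262 CPM in the empty vector libraries and 290, 255 and 292 CPM in the ppk1 libraries. It was lower with ppk1 in pairs B and C and higher in pair D, and its fitted log2 change was -0.08 (SE 0.08, edgeR adjusted p 0.544). Without replicate D the value was -0.22 and passed the test (adjusted p 0.0349). JUND (ENSG00000130522, chromosome 19, minus strand) had 79.5, 67.9 and 59.7 CPM in the controls and 73.9, 64.7 and 70.7 CPM with ppk1. The fitted log2 change of JUND was 0.02 (SE 0.08, edgeR adjusted p 0.901), the smallest of the 10 in size.

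ATF3 (ENSG00000162772, chromosome 1, plus strand), a stress-induced factor that pairs with Jun proteins and as a homodimer represses transcription, moved the other way. It stood at 144, 107 and 112 CPM in the empty vector libraries B, C and D and at 113, 79.6 and 99.8 CPM in the ppk1 libraries. The groups overlapped, because library B was the highest of each group, but ATF3 was lower with ppk1 in all 3 pairs, by log2 differences of -0.35, -0.42 and -0.17. The log2 fold change was -0.31 (SE 0.08, edgeR adjusted p 0.00382). The call was lost without the block (adjusted p 0.220) and without replicate C (0.366), and it was kept with DESeq2 (0.00400).

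IER2, a nuclear protein of the immediate early response, had 68.9, 62.8 and 51.2 CPM in the empty vector libraries and 68.4, 60.6 and 68.2 CPM in the ppk1 libraries. Pairs B and C differed by -0.01 and -0.05 on the log2 scale and pair D by 0.41. AC011446.2 overlaps IER2 exons on the opposite strand, and its level is not given here. IER5, known to bind and activate the heat shock factor HSF1, had 62.6, 61.1 and 54.9 CPM against 62.0, 62.6 and 64.4 CPM. The log2 fold changes were 0.11 (SE 0.08) for IER2 and 0.08 (SE 0.08) for IER5, with edgeR adjusted p-values of 0.408 and 0.550. For both genes empty vector library D was the low one. The other 5 libraries lay between 60.6 and 68.9 CPM for IER2 and between 61.1 and 64.4 CPM for IER5.

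**Figure D2:**
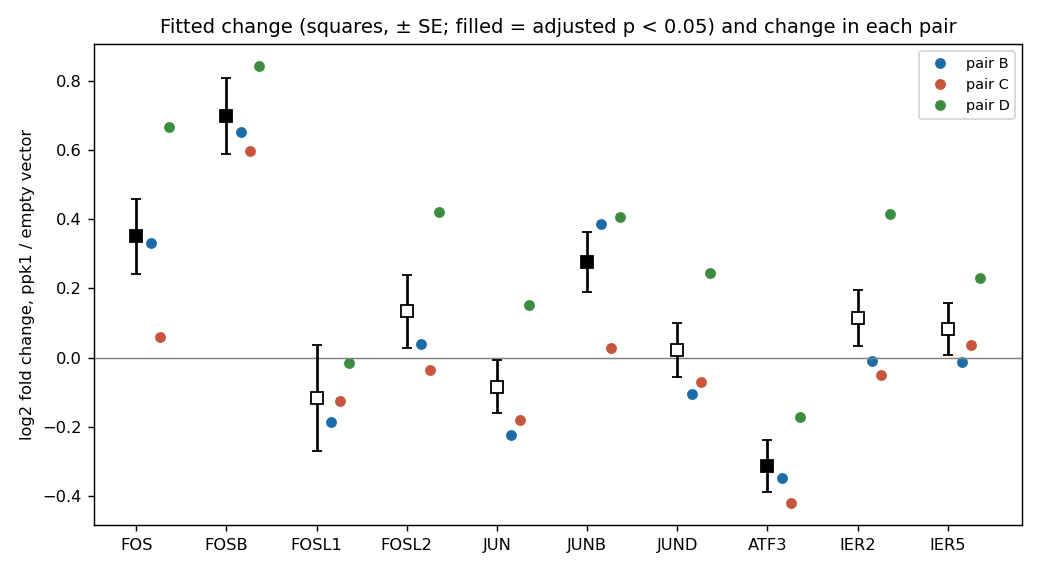
Log2 fold change of each gene, ppk1 over empty vector, as fitted (squares with 1 SE, filled where the adjusted p was below 0.05) and in the pairs B, C and D (coloured points). FOSB is above 0 in each pair (0.65, 0.60 and 0.84) and ATF3 below 0 in each pair, and pair D is the uppermost point for all 10 genes.

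Pair D gave a higher difference than pairs B and C for all 10 genes. The median log2 difference over the 10 genes was -0.01 in pair B, -0.04 in pair C and 0.32 in pair D, while over all tested genes it was 0.01, 0.02 and -0.001. Among the empty vector libraries, B held the highest level for 9 of the 10 genes and D the lowest for 9. Across all tested genes B was the highest empty vector library for 36.4% and D the lowest for 40.5%. In the ppk1 group, library C was the lowest for 8 of the 10 genes, against 36.6% of tested genes, and B and D were the highest for 5 each. The coefficient of variation among the controls ran from 2.10% for JUNB and 3.99% for FOSL1 to 16.6% for ATF3, and for JUN, JUND, ATF3 and IER2 it was at least 13.1%, where counting error at the lowest count was at most 2.19%. What set these library levels was not tested.

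FOS, FOSB and JUNB were higher in 3 of 3 pairs, 3 of 10 genes against 22.6% of all tested genes, and FOSL1 and ATF3 were lower in 3 of 3, 2 of 10 against 21.1%. The groups did not overlap for FOSB and JUNB, with ppk1 higher (2 of 10, against 13.0%), and for FOSL1, with ppk1 lower (1 of 10, against 12.6%). These shares were near those of all genes.

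Per kilobase of annotated exon, the Jun subunits far exceeded the Fos subunits. In the empty vector libraries the levels were 83.8 ± 10.9 CPM per kilobase for JUN, 37.0 ± 5.35 for JUND, 29.95 ± 4.98 for ATF3, 19.8 ± 2.93 for IER2, 14.2 ± 0.973 for IER5 and 9.53 ± 0.200 for JUNB (mean ± SD, n = 3). The Fos subunits followed with 2.03 ± 0.233 CPM per kilobase for FOS, 1.23 ± 0.0490 for FOSL1, 1.09 ± 0.153 for FOSL2 and 0.895 ± 0.0676 for FOSB (mean ± SD, n = 3). In this order the control ranges overlapped between JUND and ATF3, between FOSL1 and FOSL2 and between FOSL2 and FOSB, and these neighbours were not separated by their spread. On this scale FOSB was the lowest of the 10 in the controls. With ppk1 it reached 1.46 ± 0.0712 CPM per kilobase and was eighth of 10. All 3 of its libraries (1.38 to 1.52) lay above those of FOSL2 (1.08 to 1.26) and FOSL1 (1.11 to 1.18). Exon length covers all annotated forms, 5553 bases for FOSB and 4040 for ATF3. The coding transcript with the longest coding sequence has 3775 and 2033. For FOSL2 the lengths are 7157 and 6708, and for JUND 1863 in both. The order of FOSB and FOSL2, and of JUND and ATF3, therefore depends on the length used.

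As a share of Fos plus Jun subunit transcripts on that scale, the Fos subunits took 3.64%, 4.07% and 3.94% in the empty vector libraries B, C and D. In the ppk1 libraries they took 4.65%, 4.80% and 4.85%, so the groups did not overlap, and the mean was higher by 0.883 percentage points. FOS contributed 0.433 and FOSB 0.424 percentage points of this difference, FOSL2 0.0889 and FOSL1 -0.0626. On the same scale, of all Fos plus Jun transcripts, the share of JUN went from 61.8 ± 0.476% to 58.7 ± 0.461% and that of JUNB from 7.09 ± 0.723% to 8.61 ± 0.546% (mean ± SD, n = 3). The count of FOS reads per JUN read, which needs no scaling between libraries, was 0.0211, 0.0238 and 0.0218 in the controls and 0.0311, 0.0281 and 0.0313 with ppk1. These shares depend on the exon length used. They are a description of transcripts, with no test, and say nothing of protein.

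**Figure D3:**
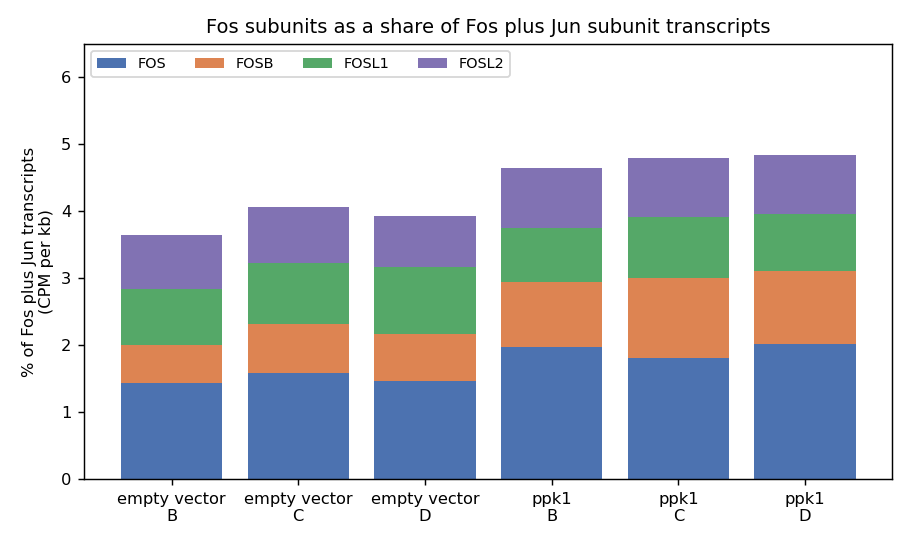
Share of Fos plus Jun subunit transcripts (vertical axis, percent of CPM per kilobase) taken by FOS, FOSB, FOSL1 and FOSL2 in each library, as stacked bars from 0; the rest is JUN, JUNB and JUND. The 3 control bars end between 3.64% and 4.07%, and the 3 ppk1 bars between 4.65% and 4.85%.

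The sequences just before the gene starts of FOS, FOSB and JUNB, the genes called higher, are shown because they share letters there. RefSeq promoter sequences on GRCh38.p14 matched 9 of the 10 genes, all except FOSL1, with 1 start per gene, and the 250 bases before the start were searched on both strands. The windows of FOS, FOSB and JUNB held TATAAA, the TATA box, with its first base 33, 30 and 31 bases before the start. This was found in 3 of the 9 windows and in 11.1% of 27305 RefSeq windows of that length. The shorter TATAA, which TATAAA contains, was also present for JUND and IER5, in 5 of 9 windows and 19.6% of all, so it is shared with genes that were not called. These motifs and the stretches shown were chosen after the values were seen, from 15 patterns searched, most of them added after the first few gave little. The 7 not described further were TGACGTNA (3 of the 9 windows, 2.82% of all), CCGGAAG (1, 8.82%), TTCNNNGAA (0, 6.78%), CCAAT (5, 33.0%), GGGCGG (7, 42.3%), CC and GG spaced by any 6 bases (9, 73.2%) and ATATNNGG (1, 4.61%). The 100 bases before the start are given 5′ to 3′ on the gene's strand, with TATAAA and TGACGT in capitals.
FOS, chr14:75278728-75278827, plus strand: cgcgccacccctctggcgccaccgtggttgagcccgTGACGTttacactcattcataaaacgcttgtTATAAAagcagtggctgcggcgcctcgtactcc
FOSB, chr19:45467896-45467995, plus strand: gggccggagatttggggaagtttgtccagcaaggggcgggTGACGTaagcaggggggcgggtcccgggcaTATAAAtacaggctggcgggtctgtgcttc
JUNB, chr19:12791386-12791485, plus strand: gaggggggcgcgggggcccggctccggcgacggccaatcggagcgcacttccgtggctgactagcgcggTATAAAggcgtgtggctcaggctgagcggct

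TGACGT is the core of the cyclic AMP response element, which CREB and ATF proteins bind. It lay at 64 bases before the start in FOS, at 60 in FOSB and at 66 in FOSL2, and the window of JUND held it 3 times. That is 4 of 9 windows, against 7.42% of all. The full element TGACGTCA was found in JUND alone of the 9 (1.77% of all windows) and overlaps 2 of its 3 cores. JUN holds a variant AP-1 site, TGACATCA, known to bind JUN with ATF2, with its first base 67 bases before the start; ATF3 has the same letters at 123, and 2.45% of all windows have them. The AP-1 site TGANTCA (6.60% of all windows), the EGR site GCGNGGGCG (8.25%) and the CArG box bound by SRF (1.14%) were in none of the 9 windows, which says only that these letters are not in these 250 bases. The 30 bases around the JUN site, with the site in capitals, show the variant letters.
JUN, chr1:58784096-58784125, minus strand: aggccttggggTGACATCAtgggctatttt

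The transcripts of the group are short on exons. In GENCODE release 29 the coding transcript with the longest coding sequence had 1 exon for JUN, JUNB, JUND, IER2 and IER5 and 4 exons for FOS, FOSB, FOSL1, FOSL2 and ATF3. Among 18682 coding genes 4.74% had 1 exon and 27.1% had at most 4, and the median was 8. AU-rich elements in the 3′ untranslated region mark messenger RNAs for rapid decay. The pentamer ATTTA occurred in that region in 9 of the 10 genes, all except IER2, against 62.8% of coding genes, with 5 copies in FOS, 9 in FOSL2 and 10 in IER5. These figures were not adjusted for the length of the region. It was 806 bases in FOS, 4864 in FOSL2 and 3013 in IER5, against a median of 806 over coding genes. The nonamer TTATTTATT, a tighter form of the element, was present in FOS, FOSL2 and IER5, against 7.19% of coding genes. FOS was called and FOSL2 and IER5 were not. Their first nonamers, in capitals with 10 bases on each side, are shown with GRCh38 positions.
FOS, chr14:75282060-75282088, plus strand: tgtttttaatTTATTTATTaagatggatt
FOSL2, chr2:28416355-28416383, plus strand: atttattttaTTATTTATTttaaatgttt
IER5, chr1:181092443-181092471, plus strand: gtgtcttcctTTATTTATTtatttattta

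FOSB kept its direction and its call in all 11 other settings tried, and FOS, JUNB and ATF3 each lost the call in at least 2 of them. Without the block FOSB alone of the 10 was called, against 2.40% of all tested genes. Without replicate B, FOSB was called higher and ATF3 lower, 2 of 10 against 12.5%. FOS and FOSB were called higher without replicate C, 2 of 10 against 2.06%, and without replicate D FOSB was called higher and JUN and ATF3 lower, 3 of 10 against 9.06%. FOS and JUNB both lost the call under upper-quartile scaling (adjusted p 0.0995 and 0.0941) and with a filter at a mean of 50 counts (0.0624 and 0.0566).

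**Figure D4:**
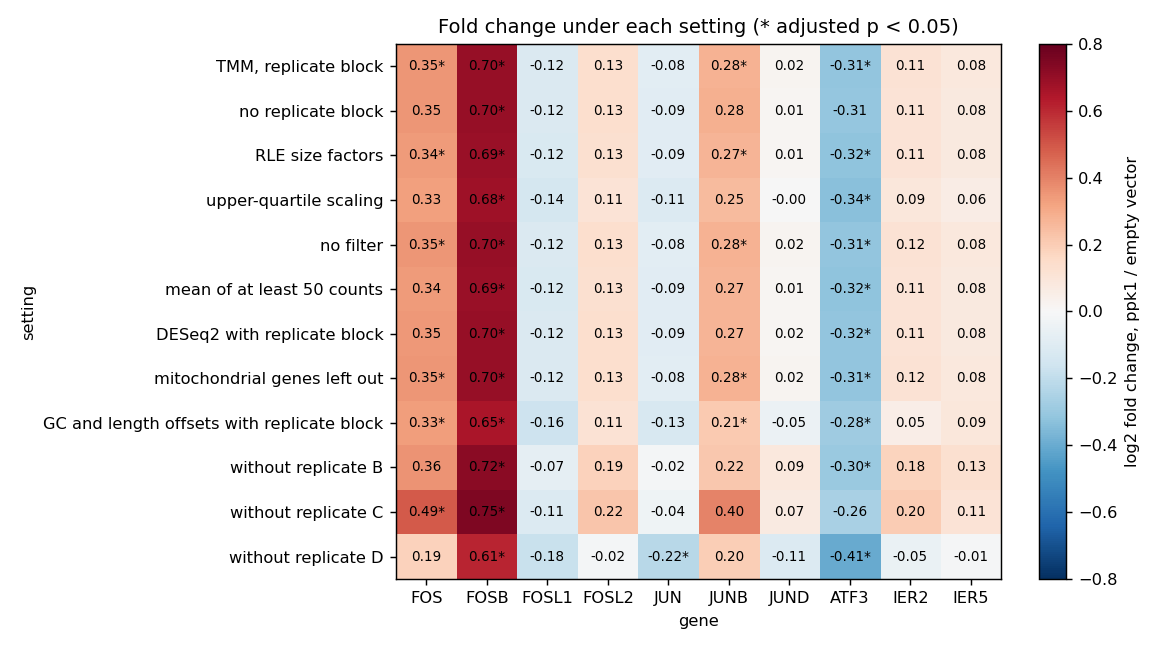
Log2 fold change (number and colour) of each gene in columns under each setting in rows, with an asterisk where the adjusted p was below 0.05. FOSB has an asterisk in all 12 rows, from 0.61 to 0.75, and the column of JUND passes through 0.

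The gene lists that follow were also chosen with earlier results of these data known, so their counts are descriptions only. Of 34 other immediate early genes, 33 were tested, 7 were called higher and 3 lower, against 4.04% and 5.04% of all tested genes, and the median log2 fold change was 0.01. EGR1, a zinc finger factor induced with FOS, rose from 12.9, 15.1 and 11.2 CPM to 30.9, 28.4 and 29.9 CPM in libraries B, C and D. EGR3 (log2 fold change 0.85, SE 0.16) and ARC (0.63, SE 0.13), a neuronal immediate early gene, also rose, with edgeR adjusted p-values of 0.000145 and 0.000527. ARC differed by 0.65, 0.17 and 1.10 on the log2 scale in pairs B, C and D, with pair C the smallest, as for FOS and JUNB. SRF, the serum response factor that binds the CArG box of FOS, rose by 0.38 on the log2 scale (SE 0.08, edgeR adjusted p 0.00101), with 0.11, 0.40 and 0.64 in the pairs. PLK2, a kinase gene of the immediate early class, fell by 0.63 on the log2 scale (SE 0.11) and KLF10 fell by 0.36 (SE 0.08), with edgeR adjusted p-values of 9.23e-05 and 0.000795. Without the block 3 genes of this list were called, against 2.40% of all tested genes, and without replicate C 4 were, against 2.06%. SRF and KLF10 lost the call in both of these fits and ARC without the block, while EGR1, EGR3 and PLK2 kept it in both.

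Among 16 tested bZIP genes whose proteins pair with or resemble AP-1, 3 were called higher and 1 lower, against 4.04% and 5.04% of all tested genes, with a median of 0.05. CEBPB stood at 30.3, 31.9 and 25.6 CPM in the controls and at 35.5, 40.8 and 38.5 CPM with ppk1, without overlap (log2 fold change 0.39, SE 0.08, edgeR adjusted p 0.000641). JDP2, a repressor that pairs with Jun proteins, rose by 0.38 and ATF4, the effector of the integrated stress response, by 0.25 on the log2 scale. CREB5 fell by 0.28. Without the block (2.40% of all genes called) and without replicate C (2.06%) CEBPB alone of the list was called. JDP2 was also not called without replicate D or with DESeq2, and ATF4 not without replicate B.

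Upstream of FOS and JUN, 28 kinases and promoter-bound factors were tested, with 2 called higher, 2 lower and a median of 0.06, and the 4 calls compare with 9.08% of all tested genes. SRF and ELK1, an SRF partner that ERK phosphorylates, rose (ELK1 by 0.28, SE 0.08, edgeR adjusted p 0.0127). ELK4, of the same family as ELK1, fell by 0.28 on the log2 scale. MAPK10, a JNK kinase gene with low counts, fell from 2.01, 2.41 and 3.04 CPM to 1.63, 1.38 and 1.32 CPM in libraries B, C and D (log2 fold change -0.74, SE 0.17, edgeR adjusted p 0.00260). MAPK10 alone of the list was called without the block (2.40% of all genes called) and without replicate C (2.06%), where SRF, ELK1 and ELK4 lost the call, but MAPK10 was not called without replicate D or with DESeq2. Of 12 genes that act on FOS and JUN turnover, KHSRP, an AU-rich element binding protein, was called higher (0.24), and FBXW7 (-0.28) and DET1 (-0.27), parts of ubiquitin ligases that act on JUN, were called lower, 3 of 12 against 9.08% of all tested genes. In edgeR 0 of the 12 were called without the block (2.40% of all genes) and 0 without replicate C (2.06%). An unadjusted p below 0.05 was reached by 6 of them with the block, by 6 without it and by 2 without replicate C. The percentages above are for adjusted p, and the share of all tested genes at that unadjusted level is not given here. FBXW7 alone was called without replicate D (9.06% of all genes called) and with DESeq2 (755 genes called in all, where edgeR called 1777).

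Reported AP-1 target genes formed the next list. Of 30 listed, 22 were tested, 2 were called higher and 1 lower, 3 of 22 against 9.08% of all tested genes, and the median log2 fold change was 0.09. LIF, a cytokine gene, fell from 9.39, 8.33 and 8.25 CPM to 6.18, 5.24 and 4.62 CPM in libraries B, C and D (log2 fold change -0.70, SE 0.11, edgeR adjusted p 7.44e-06). TGFB1 (0.27) and TIMP1 (0.25), a metalloprotease inhibitor, rose. Both lost the call without the block (2.40% of all genes called) and without replicate C (2.06%), where LIF alone of the list was called. TGFB1 was also not called without replicate D or with DESeq2, and TIMP1 not without replicate B. Targets of HSF1, the factor that IER5 acts on, had 6 of 12 genes called higher and 0 lower, against 4.04% and 5.04% of all tested genes, with a median of 0.28. DNAJA1 (0.42) and DNAJB1 (0.32) were among them while IER5 itself was not called, and without the block 1 of the 12 was called, against 2.40% of all tested genes. Without replicate C the edgeR fit called 0 of them by adjusted p, against 2.06% of all. At an unadjusted p below 0.05 there were 6 in that fit, compared with 8 when all pairs were used. The share of all tested genes at that unadjusted level is not given here, so these counts have no baseline. With DESeq2 6 of the 11 with an adjusted p were called higher. Over all genes DESeq2 called 324 higher, where edgeR called 791.

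**Figure D5:**
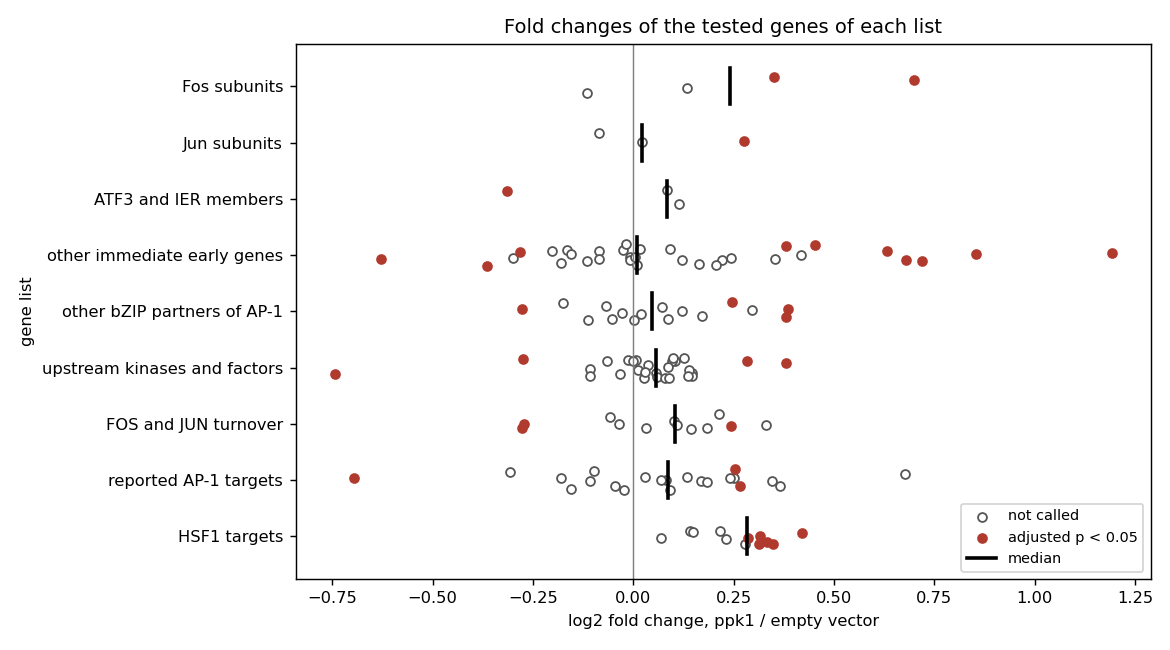
Log2 fold change, ppk1 over empty vector (horizontal axis), of every tested gene of each list, filled where the adjusted p was below 0.05, with a bar at the list's median. The other immediate early genes spread from -0.63 to 1.19 around a median of 0.01, and the HSF1 targets lie between 0.07 and 0.42.

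By Pearson correlation of log2 CPM across the 6 libraries, the genes most like FOSB among 15085 with a mean of at least 50 counts were PHLDA2 (0.994), TMEM234 (0.993) and APEH (0.992). These are descriptions over 6 libraries that share the same group difference. A Pearson correlation takes no account of the size of a change. The log2 fold change was 0.59 for PHLDA2 (edgeR adjusted p 0.00370), 0.09 for TMEM234 (0.540) and 0.17 for APEH (0.130).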

How the data were processed

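Poly(A)-selected RNA was sequenced from 6 HEK293T libraries with a directional kit, per the labels' protocols. The authors deposited raw read counts per Ensembl gene. The submitters' processing notes name bcl2fastq 2.20, Trimmomatic, STAR, HTSeq, edgeR, DESeq, Cufflinks and Cuffdiff, without roles. The build, annotation, strand setting and treatment of shared reads are not given in the sources used here.

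Counts were tested with edgeR 4.0.16 (filterByExpr with minimum count 10, TMM scaling, glmQLFit and glmQLFTest) in R 4.3.3, with adjustment over all genes tested and a threshold of 0.05. SE is the absolute log2 fold change over the square root of F. The replicate letter was a block because the design text matches the libraries. As a check, each library was taken as its difference from its group mean; across genes, these differences correlated within a letter at 0.109 (B), 0.135 (C) and 0.0476 (D). DESeq2 1.42.0 was an alternative. Pair differences used log2 CPM with a prior count of 2. The fit was tested on simulated data with the same spread for every gene and no effect of the replicate letter. That test therefore cannot judge the use of the block in these data.

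Exon lengths and features came from GENCODE release 29, promoters from RefSeq. Members and gene lists were chosen with earlier results of these data known. Beside the 10 genes, up to 6 called genes per list with the smallest adjusted p are named, and the 3 genes most correlated with the member of smallest adjusted p.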

Additional observations from a re-analysis of the deposited data

How the results depend on the processing

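Over all genes, 1777 were called with the replicate block (791 higher, 986 lower), 470 with no replicate block (89 and 381), 755 with DESeq2 (324 and 431) and 3165 with GC and length offsets (1825 and 1340). Upper-quartile scaling gave 422 higher and 933 lower, and a filter at a mean of 50 counts gave 580 and 773. Leaving out a pair gave 406 (without C; 82 and 324) to 2435 (without B; 1263 and 1172). As shares of all tested genes, 9.08% were called with the block and 2.40% without it. With a pair left out the share was 2.06% (without C) to 12.5% (without B). Of the 10 genes, 3 were called higher, but 1 without the block, with upper-quartile scaling, with a mean of at least 50 counts and with DESeq2, and 1 to 2 when a pair was left out. Called lower were 1, but 0 in edgeR without the block, and 0 (without C) to 2 (without D) when a pair was left out. DESeq2, run with the block only, called 1 lower. By unadjusted p 1 was lower in edgeR without the block, and the share of all genes at that level is not given here. Of 110 single-gene values under 11 alternatives, 88 kept direction and call, 15 lost the call, 1 gained it and 6 changed sign, all in genes that were not called. JUND was -0.00056 under upper-quartile scaling, -0.048 with GC and length offsets and from -0.11 to 0.085 with a pair left out. Across the same omissions FOSL2 ran from -0.018 to 0.22, IER2 from -0.052 to 0.20 and IER5 from -0.011 to 0.13, each negative without replicate D only. The Fos share rose by 1.49 percentage points without length correction. The cause of these differences was not tested. Depth limits FOSL1 most, where counting error at the lowest count was 10.4%.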
